A study of Mus musculus with 10 samples.

Results

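The Rab genes encode small GTPases that direct membrane traffic. They were taken here as the autosomal protein-coding genes whose symbol is Rab followed by a number and at most 1 letter, and 55 of 20696 autosomal protein-coding genes met this rule. Regulators and binding partners with longer names, such as Rab3gap1 or Rab11fip1, were left out, as were 4 Rab genes on chromosome X. Sorted wild-type mouse microglia were profiled by H3K4me3 ChIP-seq, a measure of a histone mark found at active promoters, in 2 libraries, and by H3K4me3 PLAC-seq, which lists contacts between H3K4me3-marked promoters and other 5 kb bins, as 1 list combined by the authors from 2 libraries. The cells were CD45+ CD11b+ CX3CR1+ microglia sorted from brains of C57/Bl6 mice, and the libraries used here carried neither a deletion nor a treatment. The study's methods describe adult male mice and set a narrower gate for sorted microglia, with low rather than any CD45. Whether the 2 ChIP-seq libraries came from separate animals is not given in the sources used here, so spread between them may be technical.

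Rab proteins cycle between a GDP-bound form held in the cytosol by GDI proteins and a GTP-bound form on a membrane. Exchange factors (GEFs) load GTP, GTPase-activating proteins (GAPs) promote its hydrolysis, and prenyl groups added to the C-terminus anchor the protein. In the active form a Rab recruits effectors such as tethers, motors and sorting complexes, and different Rabs mark different compartments. In microglia, as in other phagocytes, these compartments take up, sort and degrade cargo such as cell debris.

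The ChIP-seq libraries held 12.8 and 13.4 M tags, with 27845 and 26574 peaks. The values are ChIP-seq tags in a peak scaled to 10 M mapped tags. Genes are called marked if both replicates had a peak at most 1 kb from a transcription start site (TSS), and the tallest such peak gives the value of the gene. All 9 autosomal microglia markers on the list that was used (P2ry12, Tmem119, Sall1 and others) were marked, and 0 of 6 monocyte, neutrophil and lymphocyte markers were. Of 5 border macrophage markers only Mrc1 was marked, as were 2 of 7 neuron, 2 of 5 endothelial, 3 of 5 astrocyte and 3 of 5 oligodendrocyte markers. The median values of the marked members of these other lists ran from 10.4 for neurons to 135.6 for oligodendrocytes, against 211.4 for microglia, and their part in the Rab values was not tested.

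Sequences before the RefSeq start of 7 Rab genes are shown because they span the range of H3K4me3 described here. Rab11a, with the highest value, stands beside its unmarked paralogue Rab25, and Rab3a beside Rab3c, the most weakly marked member. Rab5a is an early endosome gene rich in CpGs before its start. Rab32 has a high value but few CpGs before its start, and Rab17 is unmarked. Each sequence is 150 bases upstream of the RefSeq start of GRCm38.p6 that no annotated exon covers. It runs 5′ to 3′ on the strand of the gene, with CpG dinucleotides in capitals. The positions are chr9:64737759-64737908, minus strand; chr3:88548301-88548450, minus strand; chr8:70754529-70754678, plus strand; chr13:110280207-110280356, minus strand; chr17:53479084-53479233, plus strand; chr10:10558266-10558415, minus strand; and chr1:90967668-90967817, minus strand.
Rab11a: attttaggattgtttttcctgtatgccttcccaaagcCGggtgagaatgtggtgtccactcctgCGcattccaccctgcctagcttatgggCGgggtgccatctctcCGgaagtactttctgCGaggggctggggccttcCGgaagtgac
Rab25: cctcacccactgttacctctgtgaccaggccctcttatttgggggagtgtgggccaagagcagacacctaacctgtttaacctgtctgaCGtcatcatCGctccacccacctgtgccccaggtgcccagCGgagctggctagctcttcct
Rab3a: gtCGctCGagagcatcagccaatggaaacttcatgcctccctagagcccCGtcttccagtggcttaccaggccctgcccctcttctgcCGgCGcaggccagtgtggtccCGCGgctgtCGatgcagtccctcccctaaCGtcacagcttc
Rab3c: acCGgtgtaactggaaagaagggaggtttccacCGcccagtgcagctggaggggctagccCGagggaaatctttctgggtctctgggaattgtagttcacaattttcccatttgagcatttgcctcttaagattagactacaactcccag
Rab5a: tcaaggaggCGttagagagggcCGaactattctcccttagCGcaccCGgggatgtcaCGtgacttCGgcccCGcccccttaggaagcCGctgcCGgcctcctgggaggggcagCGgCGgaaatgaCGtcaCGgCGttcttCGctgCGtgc
Rab32: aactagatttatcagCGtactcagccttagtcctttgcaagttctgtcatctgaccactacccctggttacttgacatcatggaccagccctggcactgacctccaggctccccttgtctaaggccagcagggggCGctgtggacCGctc
Rab17: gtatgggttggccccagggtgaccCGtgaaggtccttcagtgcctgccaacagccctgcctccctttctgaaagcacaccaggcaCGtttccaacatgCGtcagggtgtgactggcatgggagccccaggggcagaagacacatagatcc
The stretch of Rab5a held 16 CpGs, and those of Rab25, Rab3c, Rab32 and Rab17 held 3 each. The Rab11a stretch held 6 CpGs and 2 copies of the ETS motif CCGGAAGT. The H3K4me3 peaks of Rab3c were centred 1154 bp from the RefSeq start shown here in replicate 1 and 655 bp in replicate 2, so the replicates did not place the peak at the same position. Those of Rab11a, Rab3a, Rab5a and Rab32 were centred 132 to 395 bp from theirs. The stretches shown for Rab3c and Rab17 lie within the annotated genes, downstream of their 5′ ends.

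Nearly all Rab genes carried H3K4me3 in microglia. Of the 55 genes 49 were marked, which is 89.1% (exact 95% interval 77.8 to 95.9), against 59.4% of all autosomal protein-coding genes. Among the 49, the median value was 261 in replicate 1 and 264.8 in replicate 2, against 215.8 and 222.3 over all 12291 marked genes. A mean value over 200 was reached by 34 Rab genes (69.4%) and by 57.4% of all marked genes, and 6 Rab genes (12.2%) lay under 50, against 13.8%. The exact intervals cover counting error only.

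The libraries gave similar values for most members. The log2 ratio of replicate 2 to replicate 1 had an SD of 0.27 over the 49 Rab genes and 0.31 over all marked genes. The values differed by at most 1.5-fold in 47 of the 49, with the exceptions of Rab4a (141 and 225.3) and Rab36 (41.3 and 19.4). Ordered by mean value, 39 of the 48 neighbouring pairs had ranges of the 2 replicates that overlapped, so most neighbours in the order did not differ beyond their spread.

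**Figure D1:**
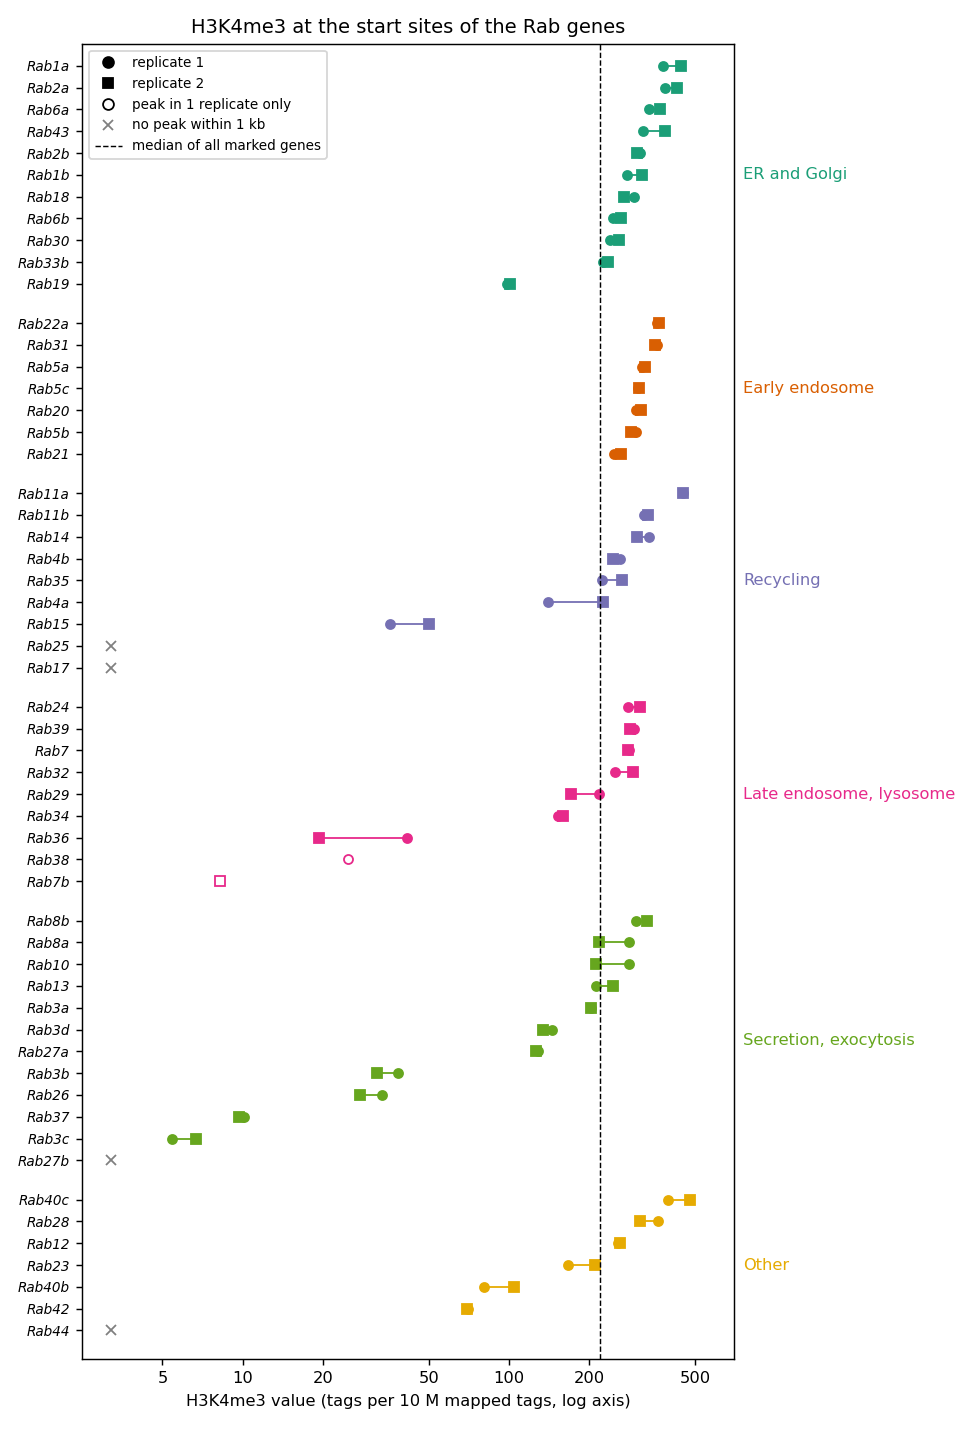
H3K4me3 value (tags per 10 M mapped tags, log axis) of each Rab gene, grouped by the compartment it is known for, with circles for replicate 1, squares for replicate 2, open symbols for a peak in 1 replicate only and crosses for no peak within 1 kb. All 7 early endosome genes lie to the right of the dashed line, the median of all marked genes, whereas the 11 marked genes of secretion range from 6.08 to 316.3.

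The peaks sat just downstream of the TSS, as at other genes. Their centres lay a median of 148 bp and 164 bp downstream in replicates 1 and 2, against 144 and 142 bp over all marked genes. Peaks were called at a fixed size, so that a wider domain appears as several peaks. When peaks at gaps of at most 1 kb were chained, 16 Rab genes (32.7%) in replicate 1 and 18 (36.7%) in replicate 2 had more than 1 peak, against 36.4% and 33.5% of all marked genes. The widest domains were those of Rab20 in replicate 1, at 1186 bp, and Rab7, a late endosome gene, in replicate 2, at 1307 bp. The Rab7 domain was a lone peak of 184 bp in replicate 1, so its width differed between replicates.

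**Figure D2:**
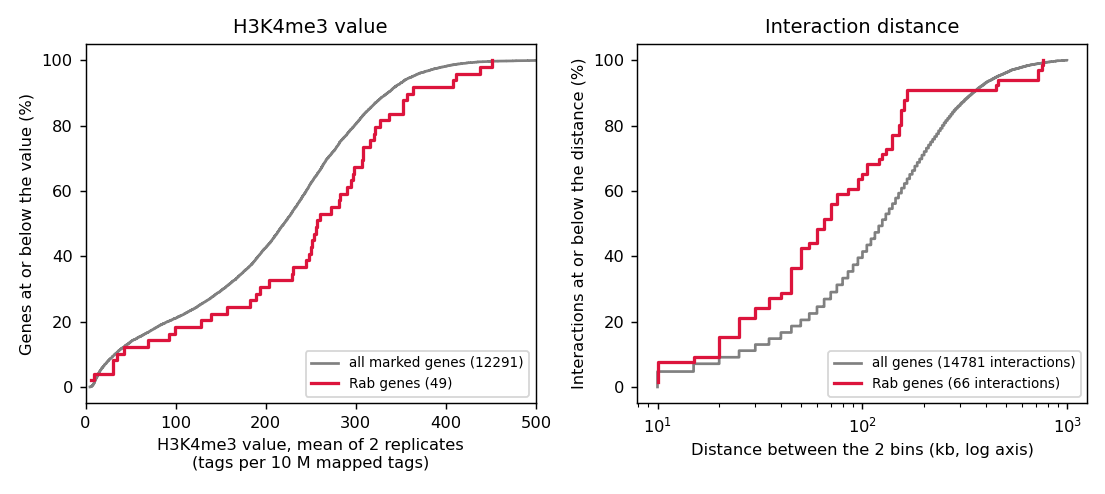
Left, cumulative share of genes (%) by mean H3K4me3 value (tags per 10 M mapped tags) for the 49 marked Rab genes (red) and all 12291 marked genes (grey). Right, cumulative share of interactions (%) by distance (kb, log axis) for the 66 interactions of Rab genes and the 14781 of all genes; the medians are 65 and 125 kb.

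All 11 genes of endoplasmic reticulum and Golgi traffic were marked, with a median of 298.4. Rab1a, which directs transport from the endoplasmic reticulum to the Golgi, had values of 381 and 442.3, and Rab2a, which acts between the same compartments, had 388 and 427.4. Rab6a, a Golgi Rab of retrograde transport, had 335 and 370, and Rab43 had 318.6 and 386.4. The remaining members with values over 200 were Rab2b, Rab1b, Rab18, Rab6b, Rab30 and Rab33b. Rab19, with 98.9 and 100.7, stood apart from them in both replicates.

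The early endosome group was the most even of the groups. All 7 members were marked, with mean values from 256.6 (Rab21) to 363.4 (Rab22a) and a median of 307.9. The 3 Rab5 paralogues, which organise early endosomes and their fusion, had values of 317.1 and 325.2 (Rab5a), 301.5 and 288.7 (Rab5b) and 306.2 and 309.6 (Rab5c). Their ranges did not overlap, but the largest ratio of their means was 1.09 and the counting intervals of the 3 genes overlapped. Rab22a (359.9 and 367) and Rab31 (359.9 and 353.6), close paralogues of endosomal sorting, overlapped in range. Rab20, an endosome and phagosome Rab, had 299.9 and 314.

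Of the 9 genes of endosomal recycling, 7 were marked, with a median of 253.6. Rab11a, the main Rab of recycling endosomes, had the highest mean of all Rab genes, with 450.3 and 452.8 (451.6 ± 1.77, SD, n = 2), and 99.7% of marked genes lay below it. Its tallest peak in replicate 1 (chr9:64737372-64737556, mm10) was in an intron of Rab11a, 159 bp downstream of the TSS. Rab11b had 321.8 and 332.7, Rab14 had 337.3 and 303.6, Rab4b had 261 and 246.2, and Rab35, known for fast recycling, had 223.6 and 267. Rab15 was low, with 35.8 and 50. Rab25 and Rab17, both known from epithelial cells, had no peak within 1 kb of a TSS in either replicate. The nearest peaks of Rab25 lay 4.46 and 4.44 kb away, with values of 165.9 and 171.6, and those of Rab17 lay 29.08 and 28.84 kb away.

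Of the 9 late endosome and lysosome genes 7 were marked, with a median of 272 and means from 30.4 (Rab36) to 296.5 (Rab24). Rab24, linked to autophagy, had 281.2 and 311.8; Rab39 had 294.5 and 285.7; and Rab7, the Rab that drives maturation to late endosomes and lysosomes, had 282 and 280.5. Rab32, a Rab of lysosome-related organelles, had 250.9 and 293.1. Rab29, which binds the kinase LRRK2, had 217.4 and 170.8, and Rab34 had 153.5 and 159.6. Rab36 had 41.3 and 19.4, a ratio beyond the usual spread between the replicates. The paralogues of Rab32 and Rab7 were marked in 1 replicate only. Rab38 had a peak of 24.9 (counting interval 17.0 to 35.2) over its TSS in replicate 1, and the nearest replicate 2 peak was 149.95 kb away. Rab7b had a peak of 8.21 (4.09 to 14.7) in replicate 2, 0.8 kb from a TSS, and the nearest replicate 1 peak was 13.73 kb away. The weakest peaks called anywhere had values of 3.9 in replicate 1 and 2.24 in replicate 2.

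Mean values of the genes of secretion and regulated exocytosis ran from 6.08 (Rab3c) to 316.3 (Rab8b). Of 12 genes 11 were marked, with the lowest median of the groups, 139.6, and 4 of the 5 lowest values of all marked Rab genes. Rab8b (300.7 and 331.9), Rab8a (283.6 and 218.6) and Rab10 (282.8 and 212.6), which serve transport to the plasma membrane, and Rab13 (213.5 and 245.4), known from cell junctions, were high. Rab3a and Rab3d, Rabs of secretory vesicles, had 203.3 and 203.6, and 144.9 and 134.3. Rab27a, needed for the release of lysosome-related granules and exosomes, had 129.3 and 126.1. Rab3b (38.2 and 32.1), Rab26 (33.5 and 27.6), Rab37 (10.1 and 9.7) and Rab3c (5.45 and 6.71) were low. Rab3c rested on 7 and 9 tags, with counting intervals of 2.19 to 11.2 and 3.07 to 12.7, and its peak in replicate 1 lay upstream of the nearest TSS. Rab27b, the paralogue of Rab27a, had no peak within 278.72 kb of a TSS.

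Of the other 7 Rab genes 6 were marked, with means from 69.8 (Rab42) to 437.7 (Rab40c). Rab40c, of a subfamily that carries a SOCS box, had 395 and 480.4, the second highest mean of all members, and Rab40b had 81 and 104.4. Rab28 had 363.8 and 311, Rab12 had 257.9 and 261.8, and Rab23, a Rab of primary cilia, had 167.5 and 211.1. Rab42 had 70.1 and 69.4. Rab44, a large atypical Rab, had no peak within 18.59 kb in either replicate.

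Values were also compared between close paralogues. In the 13 paralogue groups that were compared, 17 pairs had both members marked, and the ranges of the 2 replicates did not overlap in 16, against 86.1% of all pairs of marked genes. With only 2 replicates a range is narrow, and the exact counting intervals of the tags were apart in both replicates in 11 of the 17, against 66.0% of all pairs of marked genes. Of the 17 pairs 6 lie within the Rab3 group, so the pairs are not independent, and both counts are near those over all pairs. Rab3a stood 33.5-fold above Rab3c and 5.79-fold above Rab3b, with the values given above. Rab40c was 4.72-fold above Rab40b. For Rab1a over Rab1b, Rab6a over Rab6b and Rab11a over Rab11b the ratio of means was 1.38 in each case, with counting intervals apart in both replicates. For Rab4b over Rab4a it was also 1.38, but the 2 replicates of Rab4a differed more than that and the counting intervals overlapped in replicate 2. In the other pairs 1 paralogue was marked in both replicates and its partner was not: Rab7 but not Rab7b, Rab32 but not Rab38, Rab27a but not Rab27b, and Rab11a and Rab11b but not Rab25.

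CpG content of the promoters was compared over the 44 Rab genes with a RefSeq promoter sequence (250 bases before to 50 after the start). The ratio of observed to expected CpGs had a median of 0.77 for Rab genes and 0.63 for all 15680 genes with a sequence; over marked genes only, the medians were 0.78 and 0.8. A ratio under 0.5 was found at 6 Rab genes (13.6%), against 41% of all genes, and over marked genes only at 4 of 42 (9.52%), against 13.5%. The 6 were the unmarked Rab17 (0.22) and Rab25 (0.37) and the marked Rab42 (0.3), Rab19 (0.39), Rab3b (0.4) and Rab32 (0.41). Rab42, Rab19 and Rab3b had values of at most 100.7, and Rab32 did not. The Rab32 peaks were centred 202 and 219 bp downstream of its RefSeq start, outside the window, so CpGs under them were not counted. Rab15, with a ratio of 0.88, had a low value despite many CpGs. Across the 42 marked Rab genes with a sequence Spearman's rho between the ratio and the mean value was 0.23, and it was 0.35 across 9630 marked genes. Genes are not independent replicates, and all values share the same libraries.

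**Figure D3:**
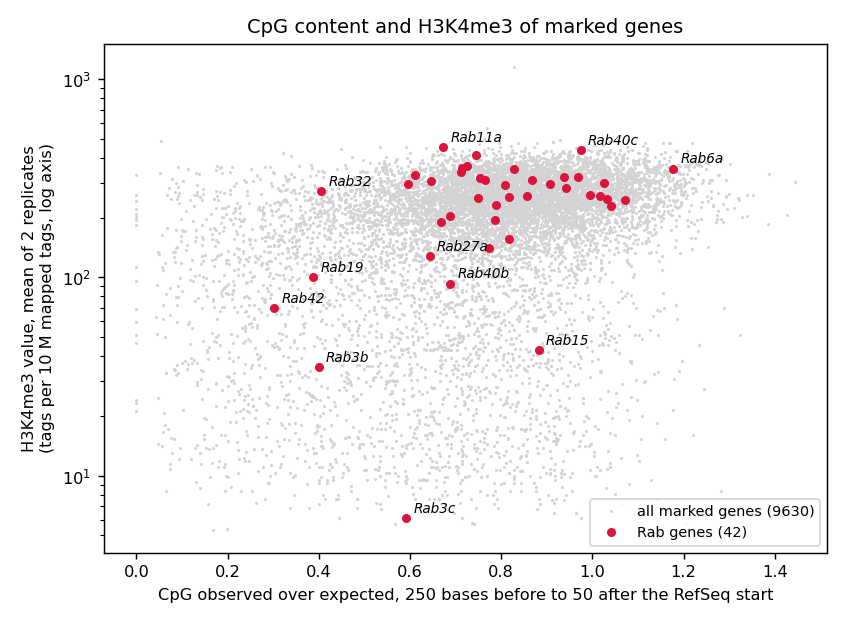
Mean H3K4me3 value (tags per 10 M mapped tags, log axis) against the ratio of observed to expected CpGs in the promoter for 42 marked Rab genes (red) and all 9630 marked genes with a RefSeq sequence (grey). Rab32 has a value of 272 at a ratio of 0.41, and Rab15 has 42.9 at 0.88. The peaks of Rab32 lay outside the window in which its CpGs were counted.

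Short motifs were searched on both strands of the same windows, as a description of letters only. The CCAAT box (CCAAT) occurred in 21 of the 44 Rab promoters (47.7%) and in 37.9% of all promoters, and the GC box (GGGGCGGGG) in 11 (25.0%) and 16.8%. Over marked genes only, the shares were 50% against 37.5% for the CCAAT box and 26.2% against 24.4% for the GC box. The E-box CACGTG occurred in 5 Rab promoters (11.4% against 8.2%): those of Rab20, Rab23, Rab21, Rab24 and Rab5a. The ETS motif CCGGAAGT was found in Rab11a and Rab24 (4.55% against 5.71%), the cAMP response element TGACGTCA in Rab25 and Rab5a (4.55% against 2.46%), and the PU.1-type motif GAGGAAGT in Rab32 and Rab2b (4.55% against 3.18%). Over marked genes only, the shares were 11.9% against 10.5% for the E-box and 4.76% against 8.85% for the ETS motif. They were 2.38% against 3.43% for the cAMP response element and 4.76% against 2.91% for the PU.1-type motif. The ETS and PU.1-type motifs share the letters GGAAGT. A coding gene on the opposite strand started within 1 kb of 3 of the 49 marked Rab genes (6.12%, against 16.7% of all marked genes): Mrpl48 beside Rab6a, Tox4 beside Rab2b and Rps27 beside Rab13. The H3K4me3 of these pairs cannot be told apart.

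Of the 49 marked Rab genes 20 had at least 1 PLAC-seq interaction from a bin with a TSS, which is 40.8% (exact 95% interval 27 to 55.8), against 37.8% of all marked genes. The mean was 1.35 interactions per gene in both sets. The 66 distinct interactions formed 27 clusters of neighbouring bins. No unmarked Rab gene had an interaction, but few Rab genes were unmarked and little can be read from this. Over all 20696 genes 5115 had an interaction, and 4642 of these were marked. PLAC-seq selects H3K4me3 and the calling used H3K4me3 peaks, so few contacts of unmarked genes are in part built into the assay. Because the list is combined over libraries, interactions have no replicate error, and a contact that is not listed was not called at this depth.

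The median distance of Rab contacts was 65 kb, against 125 kb for all genes; 24 (36.4%) spanned under 50 kb, against 18.7%, and 6 (9.09%) spanned over 200 kb, against 27.9%. Contacts of 1 gene share bins and clusters and are not independent, and the difference was not tested. The median ratio of observed to expected read pairs was 3.52, against 3.91. The partner bin held a TSS of a coding gene in 10 interactions (15.2% against 9.44%) and an exon in 25 (37.9% against 32.0%). It held an intron in 13 (19.7% against 22.6%) and no coding gene in 18 (27.3% against 36.0%). An H3K4me3 peak in both replicates lay in 13 partner bins (19.7% against 17.3%). Over all genes each contact was counted once, from 1 end, even where both bins held a TSS. Rab contacts were counted from the Rab end, so these shares are not measured alike. No difference can be read from them. In 19 interactions, of 6 genes, the partner bin lay in the body of the same Rab gene. These were 5 of Rab37, 4 each of Rab20 and Rab27a, and 2 each of Rab31, Rab6b and Rab8b. The same count over all genes was not made, so whether this is usual for genes with contacts is unknown.

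**Figure D4:**
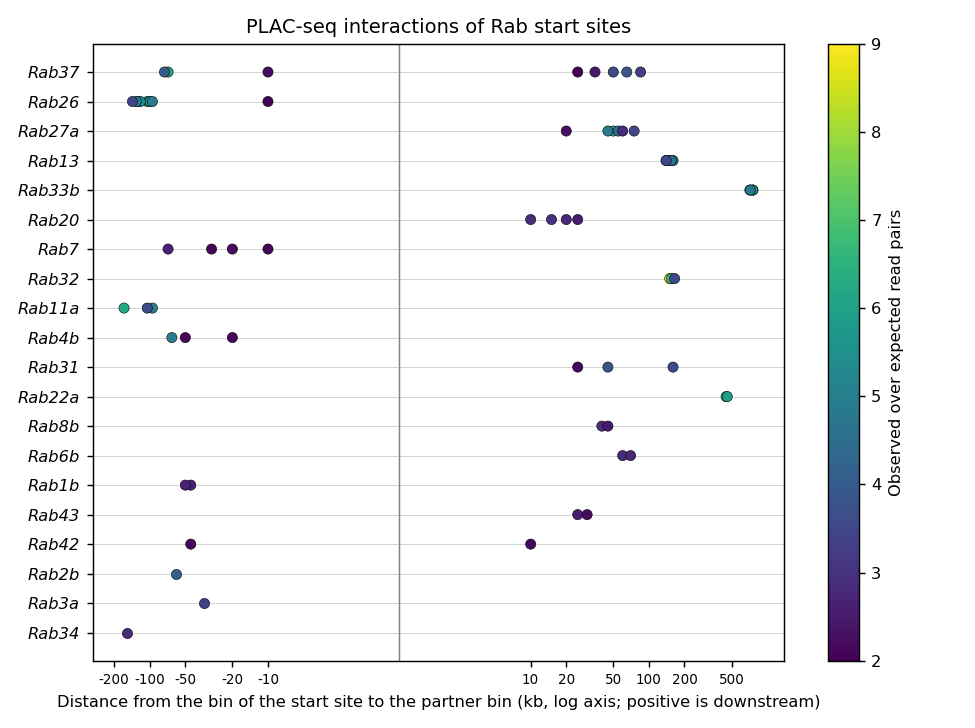
Distance from the start-site bin to the partner bin (kb, log axis, positive downstream) of each of the 66 interactions of the 20 Rab genes, coloured by observed over expected read pairs. Rab33b and Rab22a hold the 6 contacts beyond 200 kb, and the contact of Rab32 at 150 kb has the highest ratio, 8.87.

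Secretory Rab genes held 30 of the 66 interactions, and 16 of these belonged to Rab26 and Rab37, which were among the 5 most weakly marked members. The Rab37 peak rested on 13 tags in each replicate, at 5.31 and 37.19 times over input. That of Rab26 rested on 43 and 37 tags, at 14.06 and 10.58 times. Of the 6 Rab genes with a mean value under 50, these 2 had at least 8 interactions, as did 1.77% of the 1693 marked genes in that range and 3.81% of all marked genes. The limit of 8 is the count of these 2 genes themselves, so the shares are a description and not a test. The 8 interactions of each gene formed 2 clusters. Rab37, a Rab of mast cell and macrophage secretion, had 2 TSS bins. The bin of the downstream TSS, which holds its H3K4me3 peak, contacted bins 70 and 75 kb upstream that hold no coding gene. The contact at 70 kb had 37 read pairs against 5.93 expected, a ratio of 6.24. The same TSS bin also contacted a bin within Rab37 at 10 kb. The bin of the upstream TSS held a peak of 7.79 in replicate 1 and none in replicate 2, and contacted 5 bins downstream, in Rab37 itself, in Cd300lf and in Slc9a3r1. Cd300lf, an inhibitory receptor of myeloid cells, lies inside an intron of Rab37.

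All 8 contacts of Rab26, a Rab of secretory granules, ran upstream, 7 of them to bins 95 to 140 kb away. The strongest had 24 read pairs against 3.97 expected (ratio 6.04, 105 kb). The partner bins held TSSs of Nthl1 and Tsc2 (peaks of 211.9 and 152.2), of Slc9a3r2 (115.3 and 98.5) and of Npw (16.4 and 23.9), and the bin at 140 kb, in Zfp598, held the tallest peaks of these partner bins (386.4 and 425.2). The adjoining bin of the Rab26 gene body held the promoter of Traf7, with peaks of 243.8 and 275.2, and had 9 interactions of its own. Which of the 2 promoters the contacts belong to cannot be told apart at this bin size.

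Rab27a had 6 contacts, all downstream, at 20 to 75 kb. The strongest, at 50 kb (chr9:73090001-73095000, mm10), had 56 read pairs against 8.77 expected, a ratio of 6.38, and lay in an intron of Rab27a; 4 of the 6 partner bins were in the gene itself. The Rab27a peak crossed the border of its bin, and with the neighbouring bins included the count was 11. Rab13 had 5 contacts, 140 to 160 kb downstream, and 2 of them came from the bin that it shares with Rps27. The other 3, with the strongest (ratio 6.45), came from the bin of a second TSS, where the tallest peaks were 28.8 and 29.1. Rab8b had 2 contacts within its own introns. The lone contact of Rab3a ended 35 kb upstream, at a bin with a TSS of Gm3336 (ratio 3.31).

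Among endosomal and lysosomal genes, Rab32 had the strongest contact of all Rab genes, with 29 read pairs against 3.27 expected (ratio 8.87) between its promoter and a bin 150 kb downstream (chr10:10405001-10410000, mm10) that holds an exon of Adgb. Neighbouring bins of Adgb at 155 and 165 kb had ratios of 6.73 and 3.55. Rab20 had 4 contacts at 10 to 25 kb, all within its own body, with ratios of 2.57 to 3.01. Rab7 had 4 contacts at 10 to 70 kb upstream with ratios of 2.06 to 2.68, the strongest from its internal TSS bin to a bin with an exon of Rpn1. That contact was the 1 among the 66 for which the authors marked H3K4me3 in the partner bin only. Neither of its 2 TSS bins held a deposited peak, since the peak of Rab7 lay just across the border of 1 of them. Rab31 had 3 contacts, 1 of them at 160 kb to the promoter of Vapa (peaks of 356.8 and 371.5), a membrane contact site gene, with a ratio of 3.58. Rab22a had 2 contacts at 450 and 460 kb, with ratios of 6.26 and 5.88 on 12 and 8 read pairs. Rab34 had 1.

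The contacts of Rab11a, the gene with the highest H3K4me3, ran 95 to 165 kb upstream, all into Dennd4a, a gene whose product is a Rab10 exchange factor. The strongest had 16 read pairs against 2.56 expected, a ratio of 6.25. Rab4b had 3 contacts, of which 2 ended at bins with TSSs of other genes, Snrpa with BC024978 and Itpkc, both at ratios of 2.13, and the strongest at an exon of Coq8b (ratio 4.95, 65 kb). Rab33b, a Golgi and autophagy Rab, had the farthest contacts, 4 bins 715 to 760 kb downstream with ratios of 4.75 to 8.07 on 9 to 14 read pairs. None of these bins held a coding gene, and the bin at 715 kb held peaks of 84.1 and 76.1. Noncoding genes were not looked up in partner bins. Rab6b contacted bins 60 and 70 kb downstream in its own gene, and the bin at 70 kb held a peak of 66.2 and 64.9. Rab1b, Rab43 and Rab42 had 2 contacts each, and Rab2b had 1 from a bin shared with Tox4. A contact of Rab42 ended at the promoter of Rcc1.

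The share of genes with a contact was compared by H3K4me3 value. Because PLAC-seq selects H3K4me3, a share that rises with the value is in part built into the assay. Among Rab genes with a mean value over 300, 7 of 16 (43.8%) had an interaction, and 9 did not, Rab40c, Rab1a and Rab2a among them. The same share was 43.3% over all marked genes of that range. Between 200 and 300 it was 8 of 18 (44.4% against 41.1%), between 50 and 200 it was 3 of 9 (33.3% against 36.2%), and under 50 it was 2 of 6 (33.3% against 24.0%). Of the 29 marked Rab genes without an interaction, 4 had at least 1 from a neighbouring bin: Rab14, Rab21, Rab30 and Rab5c.

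The genes that act on Rab proteins were also mostly marked. The lists were the GDI and prenylation genes, the GEFs, the GAPs and the effectors, and over all genes 59.4% were marked, with a median of 220.4, and 37.8% of these had an interaction (mean 1.35). All 5 GDI and prenylation genes were marked, with a median of 273.4, and 4 had an interaction, led by Rabggta (4 interactions, values of 224.4 and 208.9), a subunit of the Rab prenyl transferase. Of 34 GEFs 33 (97.1%) were marked, with a median of 268, and 15 (45.5%) had an interaction. Rin3, a Rab5 family GEF, had 7 at values of 151.9 and 162.6, and Hps4, a subunit of the Rab32 and Rab38 GEF, had 5 at values of 169.1 and 170.8. The unmarked GEF was Rin1.

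Of 32 GAPs 31 (96.9%) were marked (median 268.8) and 15 (48.4%) had an interaction, with a mean of 2.26 per marked gene. Tbc1d14, a TBC-domain protein of recycling endosomes and autophagy, had 21 interactions at values of 257.1 and 280.5, Tbc1d9 had 9 (299.2 and 311) and Tbc1d2 had 7 (190.1 and 246.2). The unmarked GAP was Evi5. Of 44 effectors 39 (88.6%) were marked, with a median of 231.8 against 220.4 over all marked genes, and 11 of the 39 (28.2%, against 37.8%) had an interaction. Lrrk1 (295.3 and 354.3), Rilp (131.7 and 80.6) and Rab11fip4 (31.2 and 32.1) had 5 each. Of the 5 unmarked effectors 3 were synaptotagmin-like genes that bind Rab27 (Sytl1, Sytl2 and Sytl3), and the others were Myrip, which also binds Rab27a, and Rph3a, which binds Rab3.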

How the data were processed

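H3K4me3 ChIP-seq (2 libraries), its input and H3K4me3 PLAC-seq (2 libraries) came from sorted wild-type microglia. Groups followed the assay and genotype in the labels, and Hi-C libraries were not analysed here. The Rab members, roles and gene lists were chosen with earlier results of these data known. For ChIP-seq the authors deposited 1 peak list per library; the submitters' processing notes name Bowtie2, HOMER and the build mm10, with versions not given in the sources used here. Peak signal was deposited as tags scaled by the authors to 10 M mapped tags, and the deposited tag count is whole tags. The authors' input signal was scaled to ChIP depth, and their fold over input (a ratio), p-value, focus ratio (a fraction) and peak score were also deposited. Only fold was used, for 1 alternative. Peaks were called against input and had a fixed size, so a value covers a window of about 184 bp. According to the study's methods, interaction calling used peaks of the ENCODE pipeline, which may differ from the deposited calls.

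The authors merged both PLAC-seq libraries and called interactions with MAPS in 5 kb bins, with read pair counts, expected counts and false discovery rates (an adjusted p-value). The deposited −log10 p-value of clusters was not used. The deposited list held 26689 interactions with a false discovery rate of at most 0.01, at least 7 read pairs and distances of 10 to 1000 kb. Total PLAC-seq depth is unknown.

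TSSs were those of protein-coding transcripts of autosomal genes in the GENCODE M21 basic annotation of GRCm38. Interactions were given to every gene with a TSS in either bin. Exact binomial and Poisson 95% intervals cover counting error only. Named were all members with an interaction, the 5 highest and 5 lowest by value, unmarked members, paralogues and the 3 regulators with most interactions per list; other members were named to complete their groups. For 1 regulator that this rule names, the result is not reported here. There was 1 group, so no condition was compared and no test was run. RefSeq promoters (GRCm38.p6) matched 44 of the 55 symbols. Scripts ran in Python 3.11.15 with numpy 2.4.6, pandas 2.3.3, scipy 1.17.1 and matplotlib 3.10.9 and were tested on simulated data.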

Additional observations from a re-analysis of the deposited data

Results flagged for a closer look

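The 4 Rab genes on chromosome X lay outside the comparisons, and 3 of them had an H3K4me3 peak called over input near a TSS (at most 1 kb away) in both libraries. Rab9, a Rab of transport from late endosomes to the Golgi, had 110.6 and 83.5 in replicates 1 and 2, Rab33a had 24.2 and 20.9, and Rab9b had 13.2 and 13.4. Rab39b had a peak in replicate 2 only, at 16.4. The interaction list held 0 contacts on chromosome X for any gene.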

How the results depend on the processing

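Of 31 alternative values for 7 results, 20 stayed within the limit set for them (the exact interval for shares, the SD between replicates for median values and widths, and 1.5-fold for interaction numbers and promoter features). The 11 that moved beyond it were the marked share with a peak over the TSS itself and all median values, interaction numbers and means per marked Rab gene given below. A peak required over the TSS itself left 9 marked Rab genes (16.4%, against 7.97% of all genes) with a median value of 183.2, since most peaks are centred downstream. Peaks at least 16 times over input left 85.5% marked with a median value of 259.9. Without 1 replicate at a time the marked share was 90.9% and the median value was 259.4 to 264.8. The number of Rab interactions was 32 (mean 0.653 per marked gene) with the false discovery rate limited to 0.0001, 20 (0.408) with 1 interaction kept per cluster and 102 with neighbouring bins included, of which 1 belongs to the unmarked Rab17 (mean 2.06 per marked gene); over all marked genes the means were 0.555, 0.337 and 2.31. No paired analysis was possible because the only assay with separate values per library is H3K4me3 ChIP-seq in 1 group, and the numbers it shares with PLAC-seq belong to another assay. Depth limits the weakest peaks, such as Rab3c on 7 and 9 tags, and 11 Rab genes had no promoter sequence in the table used.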

Other observations

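Bins within Rab genes other than their TSS bins also had interactions. Those within Rab31 had 12, up to a ratio of 4.81, those within Rab27a had 10, up to 4.65, and those within Rab8b had 7, up to 5.05. Rab17, which had no H3K4me3 peak, had 2 interactions of bins in its body, up to 2.73. Away from the TSS, Rab6b held a peak of 66.2 and 64.9 at 69.1 kb from its TSS, and Rab40c held 1 of 18.7 and 20.9 at 5.6 kb. No TSS of another coding gene lay within 1 kb of either peak, and noncoding TSSs were not searched. These values were not part of the counts above.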
